A study of Mus musculus with 6 samples.

Results

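The Neurod and related basic helix-loop-helix (bHLH) factors considered here are 8 genes, namely Neurod1, Neurod2, Neurod4, Neurod6, Nhlh1, Nhlh2, Bhlhe22 and Atoh7. They were chosen by name, with earlier results of these data known. Their values were taken from the probe sets that the platform annotation assigns to that gene alone. Of the 8 genes, 7 had such a probe set, 13 probe sets in all, among 18193 genes measured. Bhlhe22 had none in the annotation used and was not analysed here.

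The study measured gene expression on 6 Affymetrix mouse arrays with RNA of retinal cells from C57BL/6 mice at postnatal day 6. Cells freed from the retina with papain were purified by flow sorting, and their RNA went through 2 rounds of amplification. The Hb9 group holds GFP+ Thy1+ cells labelled as Hb9 retinal ganglion cells, the Drd4 group holds GFP+ Thy1+ cells labelled as Drd4 retinal ganglion cells, and the Thy1 group holds Thy1+ cells with no GFP selection named. Each group has 2 arrays, whose cells came from different litters. Retinal ganglion cells are the neurons that carry the output of the eye to the brain. GFP lines of these names are known to mark types of ON-OFF direction-selective ganglion cell, upward-preferring in Hb9 and posterior-preferring in Drd4. The labels do not give the construct that drives GFP, and the Thy1 group can hold ganglion cells of any type, those marked in the lines included. Of 10 ganglion cell markers 9 were measured, none of them at or below background on all 6 arrays, and their summed intensity was 28096 to 29525 in Hb9, 29023 to 29728 in Drd4 and 25483 to 25676 in Thy1. Pou4f3, one of the 9, was below background on both Hb9 arrays (4.91 and 4.85) and on Thy1 replicate 1 (5.04), and passed as higher in Drd4 than in Thy1 (adjusted p = 0.0418, limma). Nefm (0.67, adjusted p = 0.00695) and the Thy1 gene itself (0.52, adjusted p = 0.0149) also passed as higher in Drd4 than in the Thy1 group. Nefm passed as higher in Hb9 than in that group as well (0.57, adjusted p = 0.0206). The other markers did not pass against Thy1.

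Proteins of this class bind DNA as pairs through a basic region and a helix-loop-helix, usually as a dimer of a neural factor with a widely expressed E protein, at the E-box, a short motif written CANNTG. Id proteins pair with E proteins but lack the basic region and so keep the pair off DNA, while Hes and Hey proteins are bHLH repressors that commonly act below Notch. In the mouse retina Atoh7 is required for ganglion cells to form, Neurod1 and Neurod4 act in photoreceptor, amacrine and bipolar development, Neurod2 is found in AII amacrine and ganglion cells, Neurod6 marks a type of amacrine cell, and Bhlhe22 acts in amacrine and bipolar cells. Nhlh1 and Nhlh2 are expressed in young neurons, and in the mouse Nhlh2 is needed in the hypothalamus for normal body weight and fertility.

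The upstream regions of the 4 genes that differed between groups are shown because 3 of them were higher in Drd4 together and the fourth ran the other way, and because the factors' own binding motif can be read in them. Each is taken from RefSeq (build GRCm38.p6), 5′ to 3′ on the gene's strand, and holds the 250 bases before the annotated start. Nhlh2 has 216 bases, since the rest of its window lies inside the annotated gene. The capitals mark every CANNTG, which reads as the same pattern on both strands.
Neurod1, chr2:79456637-79456886, minus strand: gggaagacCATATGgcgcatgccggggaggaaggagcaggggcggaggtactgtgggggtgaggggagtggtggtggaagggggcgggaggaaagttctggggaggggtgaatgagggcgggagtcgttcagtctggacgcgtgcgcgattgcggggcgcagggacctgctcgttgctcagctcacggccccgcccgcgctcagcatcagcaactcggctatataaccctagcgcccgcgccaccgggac
Neurod2, chr11:98329646-98329895, minus strand: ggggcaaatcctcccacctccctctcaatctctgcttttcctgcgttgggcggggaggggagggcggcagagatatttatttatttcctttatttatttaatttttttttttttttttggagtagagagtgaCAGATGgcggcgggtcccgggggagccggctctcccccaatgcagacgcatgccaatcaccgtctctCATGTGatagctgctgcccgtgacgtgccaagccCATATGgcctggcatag
Neurod6, chr6:55681264-55681513, minus strand: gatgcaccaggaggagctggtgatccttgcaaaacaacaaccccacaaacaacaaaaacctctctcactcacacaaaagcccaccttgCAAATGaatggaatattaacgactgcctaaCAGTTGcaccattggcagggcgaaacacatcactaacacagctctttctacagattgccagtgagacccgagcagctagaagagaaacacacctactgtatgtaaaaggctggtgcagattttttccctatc
Nhlh2, chr3:102009895-102010110, plus strand: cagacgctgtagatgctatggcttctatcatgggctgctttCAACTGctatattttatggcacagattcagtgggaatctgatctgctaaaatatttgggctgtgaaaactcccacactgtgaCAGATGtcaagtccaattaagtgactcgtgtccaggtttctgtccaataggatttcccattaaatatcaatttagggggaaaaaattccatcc
Neurod1 holds 1 E-box, CATATG, whose first base lies at -242 from the transcript start. Neurod2 holds 3, CAGATG at -118, CATGTG at -51 and CATATG at -17. Neurod6 holds CAAATG at -162 and CAGTTG at -132, and Nhlh2 holds CAACTG at -209 and CAGATG at -127. The Nhlh2 positions count from the end of its full window of 250 bases, which lies inside the annotated gene. They do not count from the end of the 216 bases shown. Nhlh1 has 1 E-box, Atoh7 has 3 and Neurod4 has none in either of its 2 annotated upstream windows. Of 32851 mouse upstream windows of 250 bases, 66.2% hold at least 1 CANNTG, with a median of 1 copy, and 14.4% hold CAGATG on either strand. An E-box in these windows is thus a common feature, and the letters alone do not show that any factor binds there.

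In the RefSeq annotation (GRCm38.p6), Neurod1 lies at chr2:79452637-79456636, Neurod2 at chr11:98325415-98329645, Neurod6 at chr6:55677818-55681263 and Nhlh2 at chr3:102010111-102015492. Among the measured genes that did not pass, Nhlh1 lies on chromosome 1 and Neurod4 and Atoh7 on chromosome 10. The 3 genes that were higher in Drd4 thus lie on 3 different chromosomes.

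Values are log2 of the deposited probe set intensity. The background reference of an array is its brightest Bacillus subtilis control probe set, which matches no mouse gene. It stood at 5.38 and 5.25 on the Hb9 arrays, 4.95 and 5.20 on the Drd4 arrays, and 5.16 and 5.12 on the Thy1 arrays. The median of these control probe sets was lower, at 3.61 to 3.81 per array. The share of probe sets above the reference ran from 53.8% on Hb9 replicate 1 to 68.3% on Drd4 replicate 1. A value below the reference therefore does not show that a transcript was absent. Where a gene has several probe sets, the one with the highest mean over the 6 arrays represents it in the test over genes. Levels of different probe sets are not compared with each other, since probes differ in brightness. Differences carry standard errors from limma, and p-values carry the Benjamini-Hochberg adjustment over the 18193 genes, with 0.05 as the threshold. The Hb9 and Drd4 comparisons with Thy1 share the same Thy1 arrays.

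Neurod1, Neurod2 and Neurod6 were higher in Drd4 cells than in both other groups, and Nhlh2 was lower in Drd4 cells than in both. In sorted bulk RNA, a difference in the fraction of cells that express a gene and a difference in RNA per cell cannot be told apart. No member passed the threshold between Hb9 and Thy1. Neurod4 and Nhlh1 lay at or near background and Atoh7, above background on every array, passed in no comparison.

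**Figure D1:**
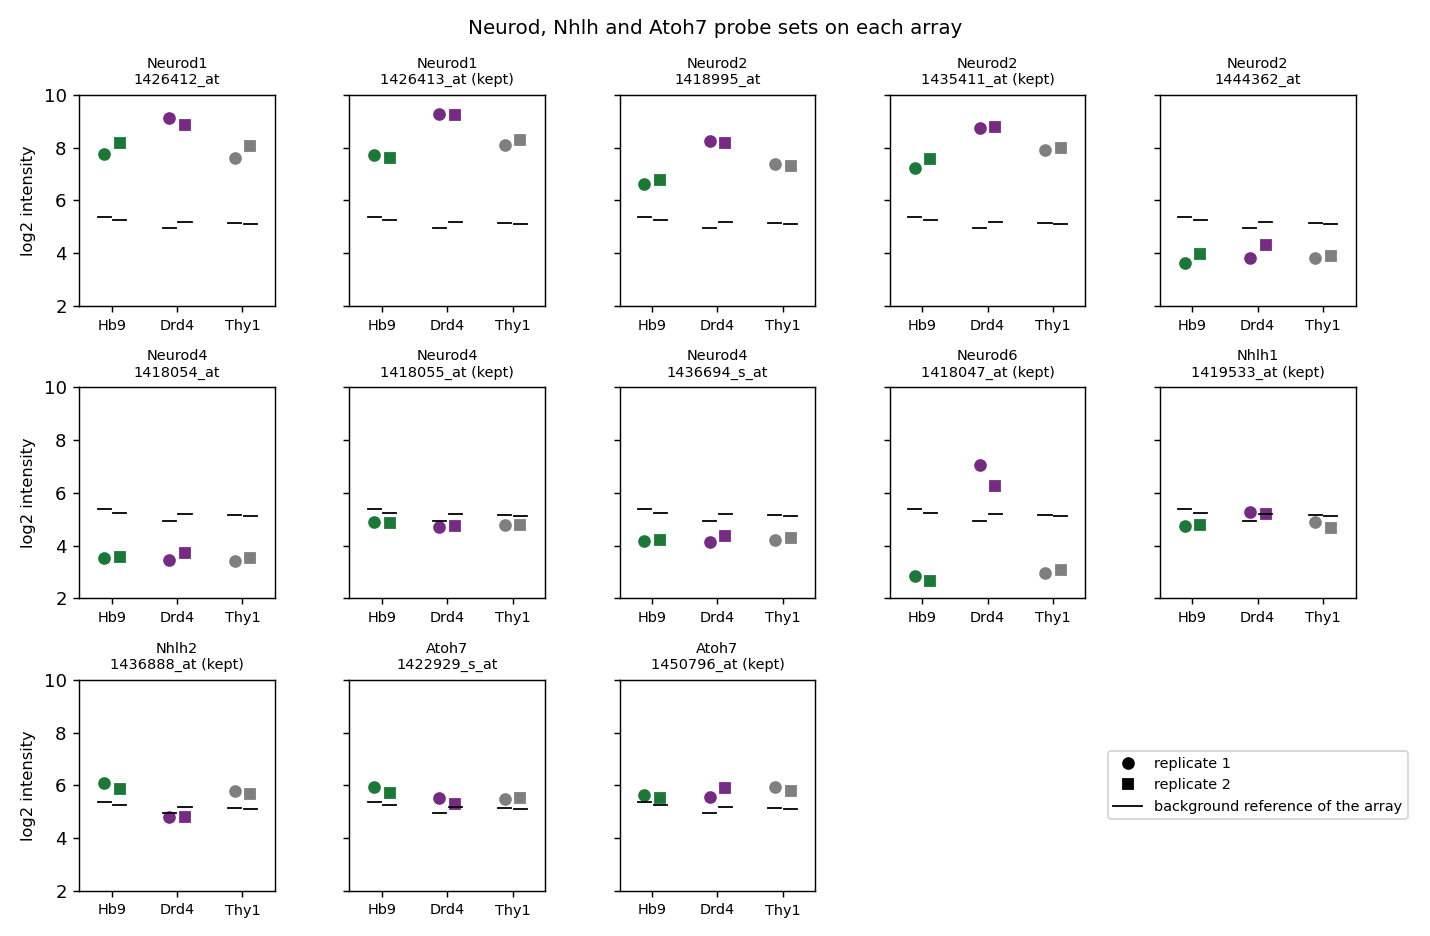
Log2 intensity (vertical axis) of each of the 13 probe sets of the 7 measured genes on each array, by group (horizontal axis: Hb9, Drd4, Thy1); circles are replicate 1, squares replicate 2, short lines the background reference of that array, and "kept" marks the probe set used for the gene. Neurod6 stands above background on the 2 Drd4 arrays only, at 7.06 and 6.25, and Nhlh2 stands below background on the 2 Drd4 arrays only, at 4.79 and 4.78.

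Neurod6, the gene that marks an amacrine type in the mouse, had log2 intensities of 2.85 and 2.67 in Hb9, 7.06 and 6.25 in Drd4, and 2.96 and 3.08 in Thy1. Its single probe set was above background on both Drd4 arrays and below it on all 4 other arrays, so that Drd4 did not overlap the other groups. The fitted difference was 3.64 ± 0.22 as Drd4 minus Thy1 (adjusted p = 1.68e-05) and -3.89 ± 0.22 as Hb9 minus Drd4 (adjusted p = 1.13e-05, limma). With the dim groups held at their background reference, Drd4 was at least 2.87-fold above Thy1 and at least 2.53-fold above Hb9. With an offset of 16 added to the intensities, the differences were 2.28 as Drd4 minus Thy1 and -2.36 as Hb9 minus Drd4, and both passed. Hb9 and Thy1 were both below background, where their order has no meaning. The 2 Drd4 arrays differed from each other more than those of any other member (6.65 ± 0.57, SD, n = 2) and both lay above the background reference of every array.

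Neurod1, which promotes neuronal differentiation and is known for its roles in photoreceptors and amacrine cells, gave 7.71 and 7.60 in Hb9, 9.27 and 9.25 in Drd4, and 8.09 and 8.29 in Thy1 with its kept probe set, 1426413_at. All 6 arrays were above background, and the 3 groups were fully separate in the order Drd4, Thy1, Hb9. Drd4 exceeded Thy1 by 1.07 ± 0.15 (2.09-fold, adjusted p = 0.00218), and Hb9 minus Drd4 was -1.60 ± 0.15 (3.03-fold, adjusted p = 0.00022). The neighbours Hb9 and Thy1 differed by -0.53 ± 0.15, which did not pass (adjusted p = 0.0657).

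The other Neurod1 probe set, 1426412_at, gave 7.76 and 8.16 in Hb9, 9.12 and 8.86 in Drd4, and 7.59 and 8.07 in Thy1. The Drd4 arrays were again the highest, but here Hb9 and Thy1 overlapped. In a fit over all 45037 probe sets that are not controls, its differences were 1.16 as Drd4 minus Thy1 (adjusted p = 0.00928) and -1.03 as Hb9 minus Drd4 (adjusted p = 0.0146). Hb9 minus Thy1 was 0.13 (adjusted p = 0.791), opposite in sign to the kept probe set. Both probe sets thus placed Neurod1 higher in Drd4, and they did not give the same order of Hb9 and Thy1.

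Neurod2, a factor known from AII amacrine cells and from cortical neurons, gave 7.23 and 7.55 in Hb9, 8.74 and 8.76 in Drd4, and 7.90 and 7.98 in Thy1 with probe set 1435411_at. The groups were separate in the same order, Drd4, Thy1, Hb9. Drd4 exceeded Thy1 by 0.81 ± 0.16 (1.75-fold, adjusted p = 0.0152), and Hb9 minus Drd4 was -1.36 ± 0.16 (2.57-fold, adjusted p = 0.000874). Hb9 minus Thy1 was -0.55 ± 0.16 and did not pass (adjusted p = 0.0748). The Drd4 call against Thy1 rests on all 4 arrays: the adjusted p was 0.0521 without Drd4 replicate 1, 0.0669 without Drd4 replicate 2, 0.0864 without Thy1 replicate 1 and 0.0540 without Thy1 replicate 2, with the difference between 0.77 and 0.85.

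Probe set 1418995_at of Neurod2 read 6.61 and 6.76 in Hb9, 8.26 and 8.18 in Drd4, and 7.38 and 7.28 in Thy1. It separated all 3 groups in that same order and passed in each comparison of the fit over all probe sets, with Hb9 minus Thy1 at -0.65 (adjusted p = 0.0337), Drd4 minus Thy1 at 0.89 (adjusted p = 0.00788) and Hb9 minus Drd4 at -1.53 (adjusted p = 0.000257). The remaining Neurod2 probe set, 1444362_at, was below background on all 6 arrays, from 3.62 to 4.32, and separated no groups. A lower Neurod2 level in Hb9 than in Thy1 therefore passed with 1 of the 2 probe sets above background.

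Nhlh2 ran the other way. Its single probe set gave 6.08 and 5.86 in Hb9, 4.79 and 4.78 in Drd4, and 5.78 and 5.69 in Thy1. It was above background on all Hb9 and Thy1 arrays and below it on both Drd4 arrays. Drd4 minus Thy1 was -0.95 ± 0.14 (adjusted p = 0.00241) and Hb9 minus Drd4 was 1.18 ± 0.14 (adjusted p = 0.000758), which with Drd4 held at background makes Thy1 at least 1.59-fold and Hb9 at least 1.86-fold higher than Drd4. Hb9 and Thy1, neighbours at the top of the order, differed by 0.23 ± 0.14 (adjusted p = 0.350).

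Nhlh1, the close relative of Nhlh2, gave 4.74 and 4.79 in Hb9, 5.28 and 5.18 in Drd4, and 4.89 and 4.66 in Thy1. Only the first Drd4 array was above its background reference. The Drd4 arrays were the highest and did not overlap the others, but neither Drd4 minus Thy1 (0.45 ± 0.13, adjusted p = 0.0955) nor Hb9 minus Drd4 (-0.47 ± 0.13, adjusted p = 0.0724) passed. Hb9 and Thy1 overlapped, with a difference of -0.01 ± 0.13.

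Neurod4, which acts with other bHLH factors in bipolar and amacrine cell genesis, was below background on all 6 arrays with each of its 3 probe sets. The brightest, 1418055_at, ran from 4.71 to 4.89, probe set 1436694_s_at from 4.12 to 4.36 and 1418054_at from 3.41 to 3.70. Neurod4 was thus not above background in any group, and no comparison passed (adjusted p from 0.547 to 0.924).

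Atoh7, the factor that retinal progenitors need to make ganglion cells, had 2 probe sets above background on all 6 arrays, though by a narrow margin. The kept probe set, 1450796_at, gave 5.62 and 5.53 in Hb9, 5.57 and 5.88 in Drd4, and 5.92 and 5.78 in Thy1, and the other, 1422929_s_at, gave 5.92 and 5.69 in Hb9, 5.51 and 5.30 in Drd4, and 5.46 and 5.51 in Thy1. The first put the mean of Hb9 lowest and the second put it highest. Hb9 minus Thy1 was -0.28 ± 0.15 with the first (adjusted p = 0.309) and 0.32 with the second (adjusted p = 0.271 over all probe sets), so that the sign for Atoh7 is unsettled and no comparison passed with either.

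Counted together, 3 of the 7 measured members were higher and 1 was lower in Drd4 than in Thy1, where 1.51% and 3.96% of all genes passed in those directions. Because the members were chosen with earlier results of these data known, setting their counts beside the shares of all genes is not a test. Between the lines, as Hb9 minus Drd4, 1 member was higher and 3 were lower, where 4.06% and 2.06% of all genes passed. Against Thy1, 0 members were higher and 0 lower in Hb9, where 3.52% and 3.19% of all genes passed. At an unadjusted threshold of 0.05, 2 members would have counted there as lower in Hb9, namely Neurod1 and Neurod2. The median difference of the 7 members was -0.26 as Hb9 minus Thy1, 0.45 as Drd4 minus Thy1 and -0.47 as Hb9 minus Drd4, beside medians over all genes of 0.04, 0.02 and 0.04.

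Over the 13 probe sets, 0 were higher and 1 was lower in Hb9 than in Thy1, with 2.49% and 3.54% of all probe sets passing in those directions. In Drd4 against Thy1, 5 were higher and 1 was lower, with 1.23% and 2.54% of all probe sets passing. In Hb9 against Drd4, 1 was higher and 5 were lower, with 3.12% and 3.37% of all probe sets passing. The 5 are both Neurod1 probe sets, the 2 brighter Neurod2 probe sets and the Neurod6 probe set, so they stand for 3 genes.

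**Figure D2:**
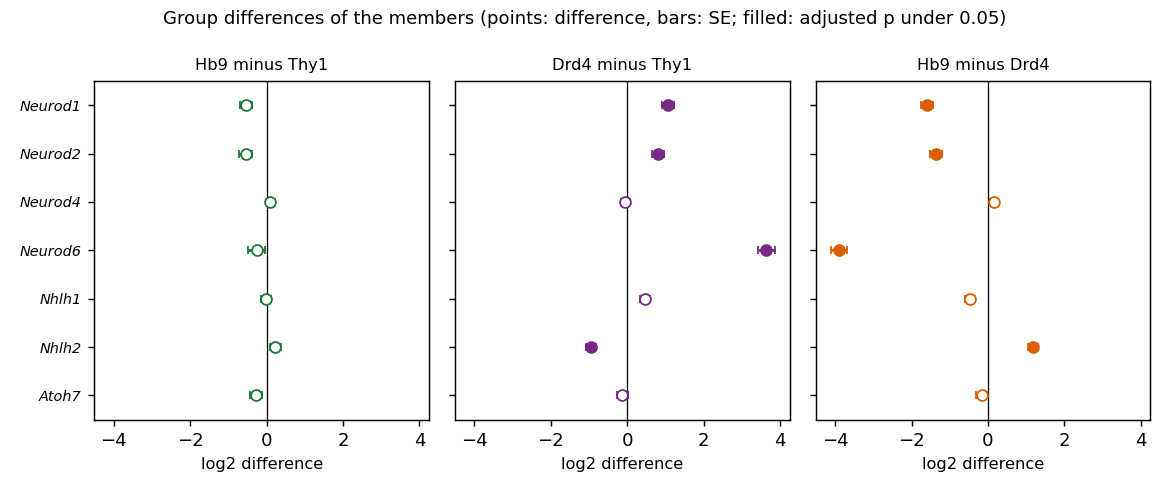
Log2 difference (horizontal axis) of the 7 measured genes in the 3 comparisons, with bars of 1 standard error from limma and filled points where the adjusted p passed 0.05. No point is filled for Hb9 minus Thy1, and Neurod6 reaches 3.64 as Drd4 minus Thy1 and -3.89 as Hb9 minus Drd4.

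The E proteins, the dimer partners of these factors, were measured with all 3 genes. Tcf4 gave 8.73 and 9.25 in Hb9, 10.92 and 10.81 in Drd4, and 10.26 and 10.16 in Thy1, which is the order Drd4, Thy1, Hb9 seen for Neurod1 and Neurod2. It was lower in Hb9 than in both other groups, with Hb9 minus Thy1 at -1.21 ± 0.17 (2.32-fold, adjusted p = 0.00404) and Hb9 minus Drd4 at -1.87 ± 0.17 (3.67-fold, adjusted p = 0.000198). Drd4 minus Thy1, 0.66 ± 0.17, did not pass with this probe set (adjusted p = 0.0596), while 4 of the 5 other Tcf4 probe sets passed as higher in Drd4, by 0.69 to 1.14. Tcf3 did not pass with any of its 3 probe sets, and its kept one differed by 0.02 as Hb9 minus Thy1. Tcf12 gave -0.66 as Hb9 minus Thy1 (adjusted p = 0.0586) and did not pass, while 1 of its 4 other probe sets, below background in Hb9, passed as lower in Hb9 than in Drd4.

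Among the 4 Id genes, whose products withhold E proteins from the neural factors, 1 was lower in Hb9 and 2 were lower in Drd4 than in Thy1. Id4, which was bright in every group, gave 10.76 and 11.13 in Hb9, 10.41 and 10.18 in Drd4, and 11.14 and 11.09 in Thy1. The Drd4 arrays were the lowest, with Drd4 minus Thy1 at -0.82 ± 0.15 (1.76-fold, adjusted p = 0.00798). All 3 Id4 probe sets passed as lower in Drd4 than in Thy1. Hb9 minus Drd4 was 0.65 ± 0.15 (adjusted p = 0.0286), a call that did not hold without Hb9 replicate 2 (0.47, adjusted p = 0.225) or without Drd4 replicate 2 (0.54, adjusted p = 0.10). Id3 was below background in both lines, with 5.13 and 6.34 in Thy1, of which only replicate 2 was above background. With the lines held at their background reference, Hb9 was at least 1.34-fold lower (adjusted p = 0.0221) and Drd4 at least 1.59-fold lower (adjusted p = 0.00338). The Hb9 call for Id3 did not hold without Hb9 replicate 1 (adjusted p = 0.0937) or Hb9 replicate 2 (adjusted p = 0.0801), nor under robust moderation (adjusted p = 0.0573). The fitted Hb9 minus Thy1 difference, -1.41, was -2.02 without Thy1 replicate 1 and -0.81 without Thy1 replicate 2, and Drd4 minus Thy1 was -2.55 and -1.34, so that the bounds rest on 1 Thy1 array. Id1 and Id2 did not pass with their kept probe sets, with Id2 at -0.85 as Drd4 minus Thy1 (adjusted p = 0.0855). Another Id2 probe set, below background on every array, passed as lower in Drd4 than in Thy1 (-0.555, adjusted p = 0.0407, limma over all probe sets).

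Of 6 Hes and Hey repressor genes, Hey2 and Heyl were lower in both lines than in Thy1 and the others did not pass with their kept probe sets. Another Hes5 probe set, below background on all 6 arrays, passed as higher in Hb9 than in Thy1 (0.54, adjusted p = 0.0227, limma over all probe sets). Hey2, which is also known from arteries, gave 4.32 and 3.97 in Hb9, 4.34 and 4.14 in Drd4, and 5.83 and 6.11 in Thy1. It was above background on the Thy1 arrays alone, which puts it at least 1.57-fold lower in Hb9 (adjusted p = 0.000452) and at least 1.86-fold lower in Drd4 (adjusted p = 0.000186). Heyl, which vascular smooth muscle and pericytes also express, was at least 1.49-fold lower in Hb9 (adjusted p = 0.0272) and 1.75-fold lower in Drd4 (adjusted p = 0.00765), while its 2 other probe sets did not pass. Without Thy1 replicate 1 neither Heyl call held (adjusted p = 0.217 in Hb9 and 0.0727 in Drd4), and the Hb9 call also did not hold without Hb9 replicate 1 (adjusted p = 0.108) or Hb9 replicate 2 (adjusted p = 0.144), nor when its probe sets were averaged (-0.43, adjusted p = 0.0716). With their kept probe sets, Hes1, Hes5, Hes6 and Hey1 differed by -0.35 to 0.48 over the 3 comparisons. None of the 6 genes passed between Hb9 and Drd4 (1 at an unadjusted threshold of 0.05, Hes6, higher in Hb9). At that threshold against Thy1, Hes1 was also lower in both lines and Hes6 was higher in Hb9.

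Many markers of pericytes and microglia were lower in both lines than in Thy1, as Id3, Hey2 and Heyl were. The summed intensity of 10 pericyte and endothelial markers was 1601 to 1978 in Hb9, 322 to 1174 in Drd4 and 7759 to 8698 in Thy1. Rgs5 was the brightest of them on every array but Drd4 replicate 2, so it weighs most in those sums. It gave 10.47 and 10.06 in Hb9 and 12.39 and 12.58 in Thy1, a difference of -2.22 that did not pass (adjusted p = 0.227, limma). Kcnj8, Pdgfrb and Abcc9 were lower in both lines, Rgs5 also in Drd4, and Pecam1, Cldn5 and Tek were at or below background on every array. The endothelial genes Kdr and Cdh5 did not pass, with Kdr, above background on every array, at -0.01 in Hb9 and -0.13 in Drd4 and Cdh5 at -0.14 and -0.12. The sum of 12 microglial markers was 1761 to 2233 in Hb9, 1124 to 3221 in Drd4 and 7176 to 12319 in Thy1, with 11 of 12 lower in each line. Markers of dividing cells summed to 739 to 851 in Hb9, 625 to 810 in Drd4 and 1318 to 2130 in Thy1. Of these, 5 of 9 fell in Hb9 and 7 of 9 in Drd4. On Thy1 replicate 2 against Thy1 replicate 1, Id3 and Hey2 were higher and Heyl was lower. The microglial sum was lower on that array, and the pericyte and endothelial sum and the dividing cell sum were higher. Markers of Müller glia and progenitors, cells that also express Id and Hes genes, summed to 2182 to 2200 in Hb9, 2495 to 2907 in Drd4 and 3635 to 3715 in Thy1. Of these 10 markers, Vim and Apoe were lower in both lines than in Thy1, and Ccnd1 was lower in Hb9. Dkk3 went the other way, higher in Drd4 than in Thy1 (1.12, adjusted p = 0.0026, limma). The remaining markers of the list did not pass against Thy1. The part of pericytes, endothelium, microglia, dividing cells, Müller glia and progenitors in the differences from Thy1 was not tested. This holds for Id3, Hey2 and Heyl and for the members alike. Between Hb9 and Drd4, Neurod1, Neurod2, Neurod6 and Nhlh2 all passed, while 0 microglial and 0 pericyte or endothelial markers passed in limma. At an unadjusted threshold of 0.05, 1 microglial marker was lower and 3 pericyte markers were higher in Hb9. The 3 are Rgs5, Pdgfrb and Abcc9, for which the 2 Drd4 arrays lay far apart (9.50 and 5.01 for Rgs5). Their differences as Hb9 minus Drd4 were 3.01, 1.97 and 1.71, and that of P2ry12, the microglial marker, was -0.77. In that comparison Dkk3 of the Müller and progenitor list was lower in Hb9 (-1.15, adjusted p = 0.0026), and Rlbp1 of that list and Birc5 of the dividing cell list passed as higher in Hb9, with both lines at or below background. The part of these genes' cells in the members' differences was not tested.

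**Figure D3:**
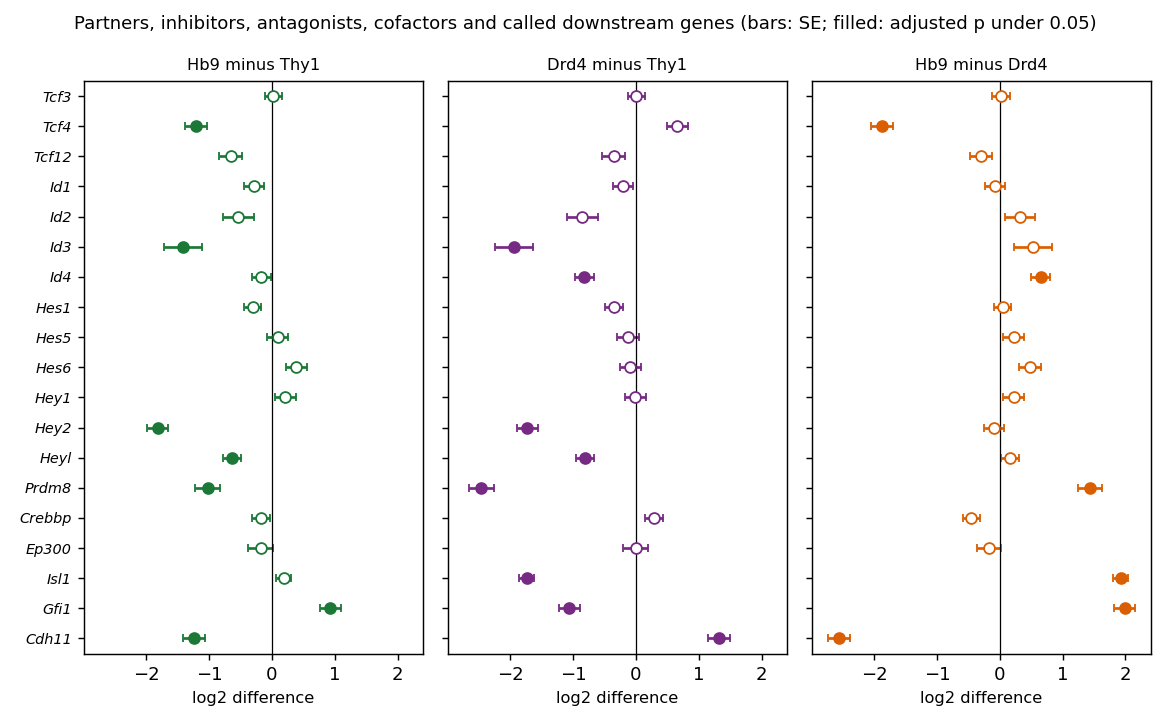
Log2 difference (horizontal axis) of the E protein, Id, Hes and Hey genes, of cofactors and of 3 downstream genes in the 3 comparisons, with bars of 1 standard error and filled points where the adjusted p passed 0.05. Tcf4 lies at -1.21 as Hb9 minus Thy1 and -1.87 as Hb9 minus Drd4, and Prdm8 at -2.46 as Drd4 minus Thy1.

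Another 15 neural and related bHLH genes were measured, among them Neurog2, Atoh1, Ptf1a, Olig2 and Bhlhe40, and 0 passed in any of the 3 comparisons in limma. At an unadjusted threshold of 0.05 there were 1 in Hb9 minus Thy1 (Lyl1, lower), 2 in Drd4 minus Thy1 (Neurog2 and Tal1, lower), and Neurog2 (higher) and Olig3 (lower) in Hb9 minus Drd4. Their median differences were -0.06 as Hb9 minus Thy1, -0.11 as Drd4 minus Thy1 and 0.06 as Hb9 minus Drd4.

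Among 3 cofactors, Prdm8, which in mouse neurons forms a repressor complex with Bhlhe22, passed in all 3 comparisons. It gave 6.86 and 7.39 in Hb9, 5.79 and 5.58 in Drd4, and 8.05 and 8.25 in Thy1, with the 3 groups separate in the order Thy1, Hb9, Drd4. Drd4 minus Thy1 was -2.46 ± 0.20 (5.51-fold, adjusted p = 8.21e-05) and Hb9 minus Drd4 was 1.44 ± 0.20 (2.71-fold, adjusted p = 0.00206). Hb9 minus Thy1 was -1.02 ± 0.20 (adjusted p = 0.0148), which did not pass without Hb9 replicate 1 (adjusted p = 0.130), without Thy1 replicate 1 (adjusted p = 0.0549) or without Thy1 replicate 2 (adjusted p = 0.0547). The acetyltransferase genes Crebbp and Ep300, whose products serve many activators, did not pass, although 1 other Crebbp probe set, above background on all 6 arrays, was lower in Hb9 than in both other groups (-1.18 against Thy1).

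Of 10 genes placed downstream of the members in the mouse literature 8 were measured, and 3 passed in at least 1 comparison. Cdh11, a cadherin that the Bhlhe22 and Prdm8 complex is known to repress in the mouse brain, gave 7.81 and 7.79 in Hb9, 10.61 and 10.13 in Drd4, and 8.98 and 9.12 in Thy1. It was higher in Drd4 than in Thy1 by 1.32 ± 0.18 (2.5-fold, adjusted p = 0.00157) and lower in Hb9 than in Thy1, with a difference of -1.25 ± 0.18 (2.37-fold, adjusted p = 0.00386). Hb9 minus Drd4 was -2.57 ± 0.18 (5.92-fold, adjusted p = 3.47e-05). Cdh11 thus had the order Drd4, Thy1, Hb9 with separate groups, and both of its probe sets passed in all 3 comparisons.

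Isl1, a LIM homeobox gene of the ganglion cell programme that follows Atoh7, gave 11.54 and 11.69 in Hb9, 9.74 and 9.63 in Drd4, and 11.36 and 11.49 in Thy1. The Drd4 arrays were the lowest, and Hb9 and Thy1 were neighbours that did not differ by the test (0.19 ± 0.12, adjusted p = 0.394). Drd4 minus Thy1 was -1.74 ± 0.12 (3.34-fold, adjusted p = 3.49e-05) and Hb9 minus Drd4 was 1.93 ± 0.12 (3.8-fold, adjusted p = 1.96e-05). Gfi1, a zinc finger gene expressed in ganglion cells, gave 6.58 and 6.15 in Hb9, 4.48 and 4.27 in Drd4, and 5.47 and 5.41 in Thy1. It fell below background in Drd4, at least 1.29-fold lower than in Thy1 (adjusted p = 0.00372), with Hb9 at least 2.46-fold above Drd4 (adjusted p = 9.81e-05). Hb9 minus Thy1 was 0.93 ± 0.17 (adjusted p = 0.0115), a call that did not hold without Hb9 replicate 1 (adjusted p = 0.0871) or Thy1 replicate 1 (adjusted p = 0.0619). The other 5 measured genes, Eya2, Insm1, Thrb, Ndn and Pcsk1, did not pass in any comparison.

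Because Neurod1, Neurod2 and Neurod6 are known from amacrine cells, amacrine markers were read beside them. Of 10 such markers 9 were measured, and their summed intensity was 1888 to 2139 in Hb9, 2042 to 2286 in Drd4 and 1298 to 1599 in Thy1, so that the ranges of Hb9 and Drd4 overlapped. Pax6, which ganglion cells also express, made up 64.1% to 81.6% of the sum and was the only one called, higher in both lines. Without Pax6 the sum was 392.6 and 415.5 in Hb9, 493.7 and 423.7 in Drd4, and 466.2 and 445.8 in Thy1, lowest on the Hb9 arrays, with Drd4 and Thy1 overlapping. Of the 9 markers, Gad1, Slc32a1 and Tfap2b were at or below background on all 6 arrays, while Gad2 (5.77 to 6.64) and Slc6a9 (7.16 to 7.46) were above it on all 6. Tfap2a, an amacrine transcription factor, gave 5.31 and 5.30 in Hb9, 5.99 and 5.56 in Drd4, and 5.86 and 5.92 in Thy1. It was lower in Hb9 than in Thy1 (-0.58, adjusted p = 0.0590) and than in Drd4 (-0.47, adjusted p = 0.127) at an unadjusted threshold of 0.05 alone. The part of amacrine cells in the differences of Neurod1, Neurod2 and Neurod6 was not tested. Starburst amacrine markers summed to 411 to 437 in Hb9, 352 to 430 in Drd4 and 385 to 440 in Thy1, bipolar markers to 844 to 1085 in Hb9, 713 to 892 in Drd4 and 671 to 836 in Thy1, and rod markers to 198 to 226 in Hb9, 202 to 223 in Drd4 and 202 to 215 in Thy1. The brightest starburst marker was Megf11 (7.86 to 8.29) and the brightest bipolar marker Prkca (8.85 to 9.74), so each weighs most in its sum. No gene of these 3 lists passed in any comparison. At an unadjusted threshold of 0.05, Slc5a7 was higher in Hb9 than in both other groups, though at or below background on all 6 arrays. Cabp5 and Gnat1 were higher in Drd4 than in Thy1 at that threshold. Cone markers summed to 328 to 331 in Hb9, 418 to 451 in Drd4 and 335 to 368 in Thy1, with Cngb3 higher in Drd4 than in Thy1 (1.33, adjusted p = 0.0021). Without Cngb3 the cone sum was 272.4 and 281.2 in Hb9, 296.9 and 286.7 in Drd4, and 315.9 and 274.5 in Thy1, so that Drd4 lay within the range of Thy1. Of 8 cone markers Opn1sw, Gngt2 and Pde6c were at or below background on all 6 arrays, while Opn1mw (5.72 to 6.05) and Arr3 (5.85 to 6.13) were above it on all 6.

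**Figure D4:**
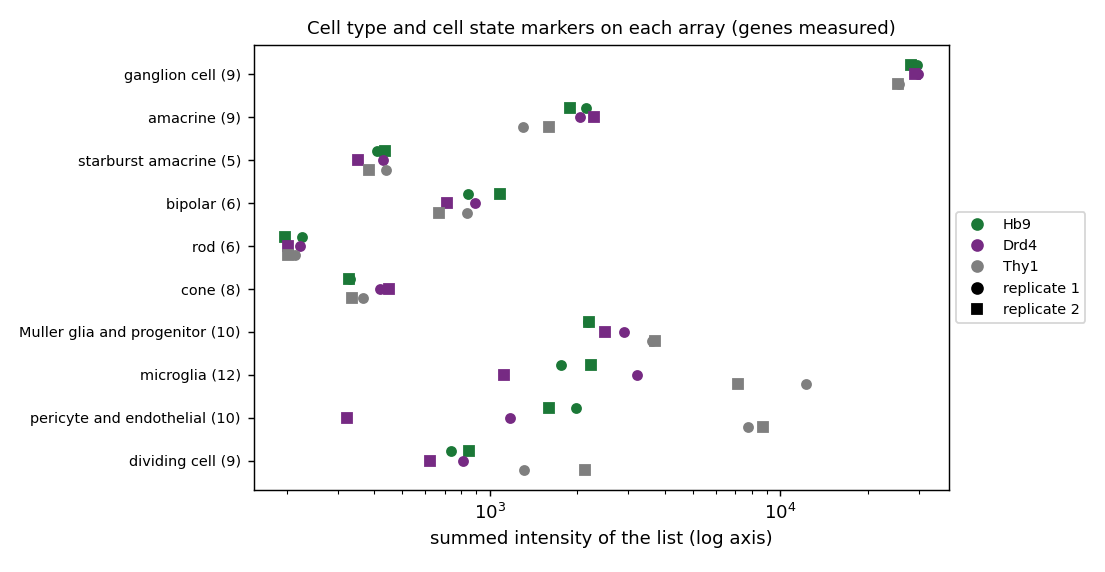
Summed intensity (horizontal log axis) of marker lists of retinal cell types and of dividing cells on each array, with the number of genes measured in brackets; colours are groups, circles replicate 1 and squares replicate 2. Microglial markers sum to 1124 to 3221 on the Drd4 arrays and 7176 to 12319 on the Thy1 arrays, while Pax6 makes up 64.1% to 81.6% of the amacrine sums.

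The genes with the most similar pattern were sought for the 4 members that passed, as the smallest root mean square difference between log2 values centred on each gene's mean over the 6 arrays, among 13141 genes above background on at least 2 arrays. Nearest to Neurod1 were Lypd6, which encodes a Ly6-type protein that acts on nicotinic receptors (0.103), the Iroquois homeobox gene Irx5 (0.109) and the cytochrome P450 gene Cyp4v3 (0.145). Nearest to Neurod2 were Cyp4v3 (0.107), the G protein regulator gene Rgs6 (0.114) and Irx5 (0.118). Cyp4v3 and Irx5 stand in both sets. Irx5 gave 7.96 and 8.10 in Hb9, 9.52 and 9.64 in Drd4, and 8.57 and 8.53 in Thy1, which is the order of Neurod1 with separate groups.

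Nearest to Neurod6 were Oxtr, the oxytocin receptor gene (0.398), the collagen gene Col24a1 (0.426) and Kctd4 (0.463). Oxtr gave 5.42 and 5.59 in Hb9, 8.87 and 8.68 in Drd4, and 5.98 and 5.82 in Thy1, so that the Drd4 arrays alone were high. Nearest to Nhlh2 were Prkch, a protein kinase C gene (0.0599), the phospholipase C gene Plch1 (0.113) and the kinase gene Map3k20 (0.114). Prkch gave 8.97 and 8.91 in Hb9, 7.73 and 7.70 in Drd4, and 8.69 and 8.56 in Thy1, low on the Drd4 arrays alone. These likenesses describe 6 arrays in 3 groups and carry no test.

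**Figure D5:**
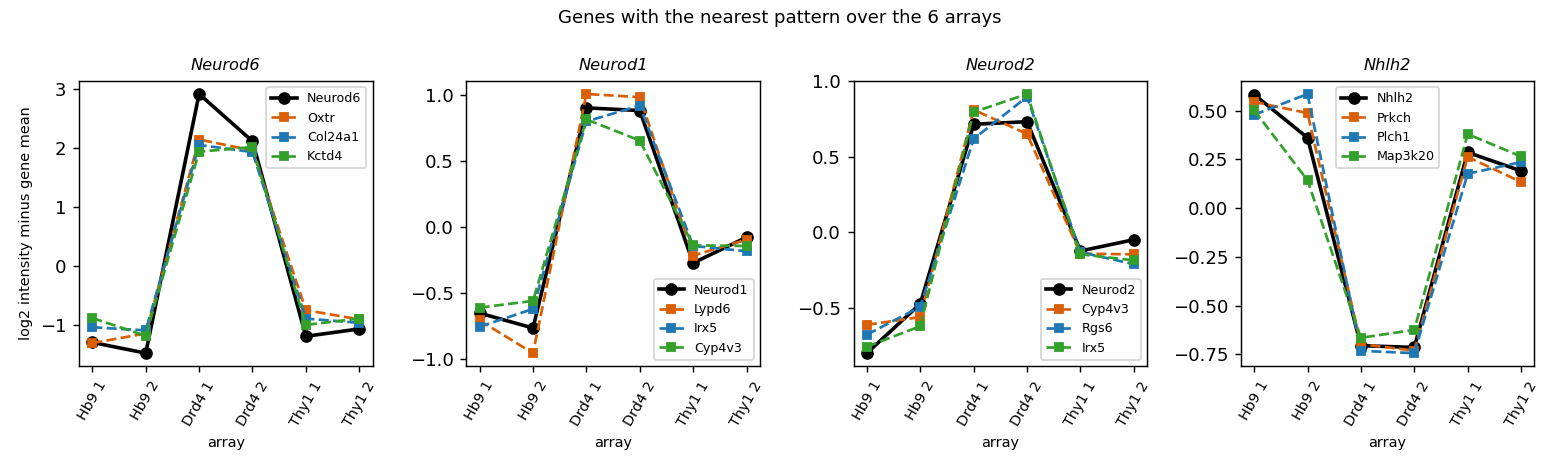
Log2 intensity minus the gene's mean (vertical axis) on each of the 6 arrays (horizontal axis) for Neurod6, Neurod1, Neurod2 and Nhlh2 (black) and the 3 genes nearest to each (dashed). Neurod6, Neurod1 and Neurod2 and their nearest genes are high on the 2 Drd4 arrays, and Nhlh2 and its nearest genes are low there.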

How the data were processed

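The authors deposited 1 intensity per probe set and array on a linear scale, from 5.54 to 13187, with array medians of 45.5 to 47.7. Not given in the sources used here: the software, background correction, summarisation and normalisation. Per the labels, the 6 arrays form 3 groups of 2. Of 45101 probe sets, 64 are controls, 34945 map to 1 gene, 932 to several and 9160 to none named. Symbols come from the platform annotation, and 34741 probe sets matched RefSeq by Entrez identifier.

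The deposited intensities were taken to log2 with no offset, since none was at or below 0. The probe set with the highest mean over the arrays was kept for each of 18193 genes. Group means were fitted to all 6 arrays with limma 3.58.1 in R 4.3.3 (lmFit, eBayes with an intensity trend, 3 residual and 6.98 prior degrees of freedom), two-sided, with Benjamini-Hochberg adjustment at 0.05. A further fit took all 45037 probe sets that are not controls. The background reference is the highest of 27 Bacillus control probe sets per array. A group whose mean is at or below its reference has only a bound: "at least N-fold" sets the brighter group's mean against the dimmer group's mean of, per array, the higher of reference and value. Precision is limited by the number of arrays, with a median standard error of 0.15 per difference. The fit was tested on simulated data.

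The members and lists were chosen with earlier results of these data known. Named genes are the members, the 3 nearest patterns of each member that passed (clone and model names left out), all measured E protein, Id, Hes, Hey and cofactor genes, and those of the other lists that passed. Genes named at an unadjusted threshold, cell type markers named singly, and sums without Pax6 or Cngb3 were chosen once their values had been seen. Alternatives tried were quantile normalisation, median centring, averaged probe sets, a filter on dim genes, moderation without trend or robust, array weights, the replicate number as a block, an offset of 16, only the groups compared, adjustment over all probe sets, and each array left out in turn.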

Additional observations from a re-analysis of the deposited data

Results flagged for a closer look

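The difference between the 2 GFP lines was itself tested, as Hb9 minus Drd4, and 4 members passed. On the log2 scale these differences were -1.60 for Neurod1, -1.36 for Neurod2, -3.89 for Neurod6 and 1.18 for Nhlh2, with the adjusted p-values from limma given above. With 2 arrays in a group, no test for an outlying array was made.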

How the results depend on the processing

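The 8 called differences of members were recomputed under all alternatives, which gave 120 values. None changed sign, and 116 passed. The other 4 are Neurod2 as Drd4 minus Thy1 with an array left out, given above. Neurod6 entered the fit without dim genes through its 2 Drd4 arrays alone. The changes of moderation, array weights, replicate block and adjustment left the 8 estimates as they were, so their sign could not turn there. With the offset of 16, Neurod6 was 2.28 as Drd4 minus Thy1 and -2.36 as Hb9 minus Drd4. The dim genes Id3 and Gfi1 were -1.24 and -0.69 with that offset, as Drd4 minus Thy1. Of 189 values for differences that were not called, 3 passed: Neurod1 as Hb9 minus Thy1 with quantile normalisation (-0.65, adjusted p = 0.0260) and with moderation without trend (adjusted p = 0.0475), and Neurod2 with quantile normalisation (-0.65, adjusted p = 0.0418). Members called lower in Hb9 than in Thy1 thus numbered 2 and 1 under these settings, against 0. The sign turned for 9 values, none of which passed. These were Nhlh1 as Hb9 minus Thy1 with quantile normalisation (0.0346), median centring (0.0353) and arrays left out (-0.13 to 0.10). With the mean of all probe sets they were Atoh7 as Hb9 minus Thy1 (0.0205) and Hb9 minus Drd4 (0.13) and Neurod4 as Drd4 minus Thy1 (0.0181). With arrays left out, Atoh7 ranged from -0.28 to 0.0317 as Drd4 minus Thy1 and from -0.31 to 0.0043 as Hb9 minus Drd4. The cause was not tested.

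Over all genes, counts with an array left out ranged from 96 to 766 higher and 219 to 509 lower in Hb9 against Thy1, from 179 to 237 higher in Drd4 against Thy1, and from 263 to 728 higher and 148 to 381 lower in Hb9 against Drd4. The lowest counts came without Hb9 replicate 1 or, for Drd4 against Thy1, without Thy1 replicate 1, and fewer arrays enter these fits. Without Hb9 replicate 2 the counts were 141 higher and 300 lower against Thy1, and 321 higher and 211 lower against Drd4. Without Thy1 replicate 1 they were 121 higher and 259 lower for Hb9, and without Drd4 replicate 1 they were 449 higher and 240 lower for Hb9 minus Drd4. With dim genes left out, 14101 genes and 5 members were tested, and Neurod4 and Nhlh1 gave no value.

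With the replicate block, 580 genes were higher and 576 lower in Hb9 against Thy1, 260 and 725 in Drd4 against Thy1, and 701 and 329 in Hb9 against Drd4, and the counts of members called were unchanged. Deviations of same-numbered arrays correlated at -0.28 between Hb9 and Drd4, -0.19 between Hb9 and Thy1 and 0.37 between Drd4 and Thy1. With so few arrays per group, these correlations cannot decide whether same-numbered samples have more than a number in common.

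Each group has 2 arrays of amplified RNA. The p-values rest on the spread between these samples, with each gene's spread drawn toward that of genes of similar intensity. Genes near the background reference have bounds rather than fold changes. The Thy1 group is a mixed sort.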
